A study of Mus musculus with 4 samples.

Results

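The mature miRNAs of E14Tg2A mouse ES cells kept in serum with LIF were compared with those of the epiblast-like aggregates (ELA) made from the same cells, across all 1907 miRNAs listed. The comparison rests on 2 of the 4 libraries of the series, named here ES serum and ELA serum. E14Tg2A is a feeder-free ES line of the 129/Ola strain, and ES serum cells (0 days in vitro) were grown in 10% fetal calf serum with 1000 U/mL LIF, the cytokine that sustains mouse ES cells. ELA serum cells had then spent 2 days as floating aggregates in a chemically defined minimal medium (CDMM) with neither serum nor LIF, so the name "serum" refers to the cells of origin. The 2 other libraries, ES 2iL and ELA 2iL, followed the same scheme from ES cells in serum-free medium with LIF, 1 µM PD0325901 (a MEK inhibitor) and 3 µM CHIR99021 (a GSK3 inhibitor), and share no library with the serum pair. A single line was used, and RNA of 3 experiments was pooled into each library. Each group is therefore 1 library, and none of the differences within the serum pair has a replicate error or a p-value.

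One field of the labels goes against the rest. The description of the ELA serum library and that of the ES 2iL library are exchanged, whereas the title, source name, medium and days in vitro of both samples match the column names. Stage and medium were taken from the column names throughout. No result of the serum pair can be given without the ELA serum library. ES serum held 8056984 miRNA reads and ELA serum 4309257, and the 5 most abundant miRNAs took 53.9% and 53.8% of them.

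miRNAs are short RNAs of about the same length that guide Argonaute proteins to mRNAs and lower their stability and translation. Targets are recognised mainly through the seed, bases 2 to 8 from the 5′ end, so miRNAs with 1 seed have largely shared targets. Many are made from a common transcript that holds several hairpins, and each hairpin can give a mature miRNA from its 5′ arm (5p) and its 3′ arm (3p). In the mouse, the miR-290/miR-295 cluster is the characteristic cluster of ES cells and the early embryo, and the miR-302/miR-367 cluster marks the primed pluripotent cells of the epiblast after implantation. ES cells in serum hold a mixture of states near the ground state, and ELA model the primed state.

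The sequences on which the comparison turns are given 5′ to 3′, with the seed in capitals. They come from the RefSeq annotation of GRCm38.p6, which held a sequence of the same name for 1623 of the 1907 miRNAs. The following 5 miRNAs have 1 seed in common, and the first 3 come from the miR-290/miR-295 cluster, the others from miR-302/miR-367.
mmu-miR-291a-3p: aAAGUGCUuccacuuugugugc
mmu-miR-294-3p: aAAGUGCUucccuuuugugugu
mmu-miR-295-3p: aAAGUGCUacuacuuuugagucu
mmu-miR-302b-3p: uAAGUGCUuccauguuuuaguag
mmu-miR-302d-3p: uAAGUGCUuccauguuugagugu
The annotated mmu-miR-302c-3p starts 1 base further in, so its bases 2 to 8 differ from those above.
mmu-miR-302c-3p: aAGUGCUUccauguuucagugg

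In the miR-17/miR-92 cluster and its relative miR-106a/miR-363, the miR-17, miR-20 and miR-106a members carry most letters of that seed, moved by 1 base, and miR-18a and miR-18b have a seed of their own. The pairs are shown because members of the same seed family came from clusters that changed to different degrees.
mmu-miR-17-5p: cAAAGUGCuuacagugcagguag
mmu-miR-106a-5p: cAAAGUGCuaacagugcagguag
mmu-miR-20a-5p: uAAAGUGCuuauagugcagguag
mmu-miR-20b-5p: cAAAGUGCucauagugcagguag
mmu-miR-18a-5p: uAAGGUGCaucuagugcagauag
mmu-miR-18b-5p: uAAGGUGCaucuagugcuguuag

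The miR-181 and miR-27 families are shown because a member on chromosome 8 was lower in ELA serum while a close relative elsewhere was not past the fold limit.
mmu-miR-181a-5p: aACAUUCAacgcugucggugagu
mmu-miR-181b-5p: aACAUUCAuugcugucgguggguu
mmu-miR-181c-5p: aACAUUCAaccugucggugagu
mmu-miR-181d-5p: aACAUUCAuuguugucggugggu
mmu-miR-23a-3p: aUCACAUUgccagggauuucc
mmu-miR-27a-3p: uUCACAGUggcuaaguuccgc
mmu-miR-27b-3p: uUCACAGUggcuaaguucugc
Several of these relatives are nearly the same sequence: mmu-miR-27a-3p and mmu-miR-27b-3p differ at 1 of 21 bases, mmu-miR-181b-5p and mmu-miR-181d-5p at 1 of 23, and mmu-miR-17-5p and mmu-miR-106a-5p at 1 of 23. How reads that map to several places were counted is not given in the sources used here, so the split of reads within such a pair is uncertain.

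The values are RPM (reads scaled to a total of 1000000 miRNA reads), which are shares of a library and not amounts per cell. Differences are ELA serum minus ES serum on log2(RPM + 1), a scale on which low miRNAs change less than in RPM. A miRNA was called expressed when its mean log2(RPM + 1) over the 2 libraries was at least 5, equal to 31 RPM, and it passed the fold limit with a difference of at least 1 in size. The 288 expressed miRNAs took 99.6% of the reads of both libraries. Of these, 42 were lower in ELA serum past the limit (percent of expressed miRNAs called: 14.6%) and 24 were higher (8.33%), or 22.9% in either direction. Without regard to the limit, 52.4% of the 288 were higher and 47.6% lower. The median difference was 0.08, 47.6% lay within 0.5 of 0, and the middle of the distribution ran from −0.58 to 0.50. The 42 lower miRNAs went from 4.61% of the reads to 1.77%, and the 24 higher ones from 1.10% to 5.05%.

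The larger number of lower than higher miRNAs depended on the scaling. With DESeq2 size factors, 35 were lower and 36 higher among 308 expressed, because all differences moved up and their median became 0.25. Under RPM 36.4% of the miRNAs past the limit were higher, and under DESeq2 size factors 50.7%. With TMM factors 46 were lower and 28 higher among 312.

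Counting error was small beside most differences. The exact 95% interval of the read ratio excluded equality for all 66 miRNAs past the limit, with a half-width of at most 0.35 on the log2 scale, and 52 expressed miRNAs had intervals wholly beyond a log2 ratio of 1 in size. Such intervals cover counting error only, not the variation between cultures. The share of miRNAs past the limit was 31.7% of the 101 with the lowest means (5 to 7), 16.9% of 89 (7 to 9), 22.4% of 49 (9 to 11) and 16.3% of the 49 most abundant. The miRNAs nearest the limit were at 1.03 inside and 0.99 outside among the higher ones, and at −1.02 and −0.99 among the lower ones.

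**Figure D1:**
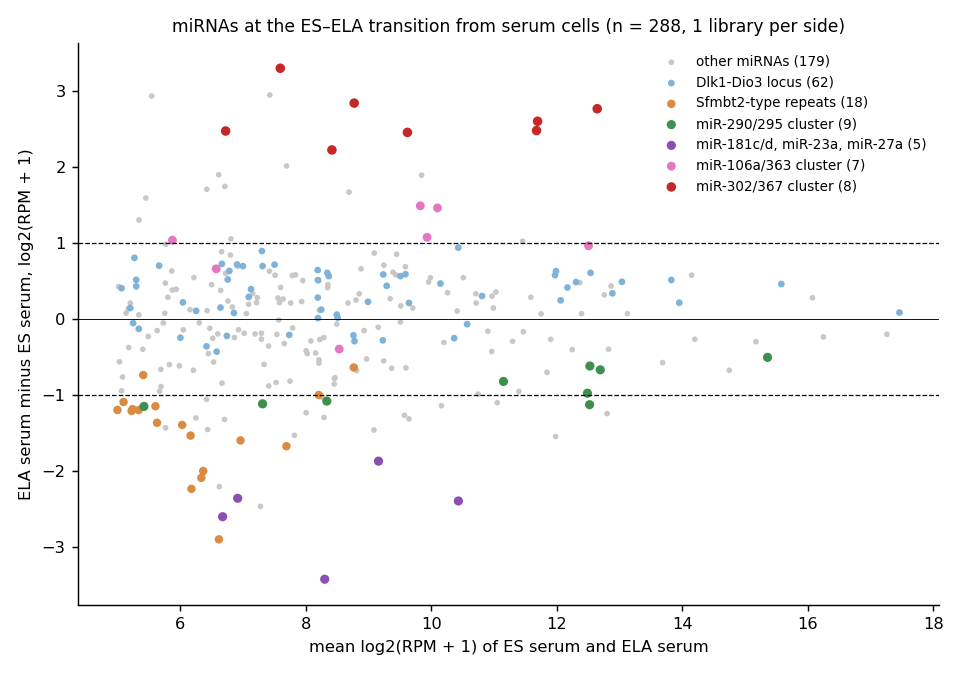
Each point is 1 of the 288 expressed miRNAs, with the mean log2(RPM + 1) of both libraries on the x axis and the difference on the y axis. Dashed lines mark the fold limit. The 8 miR-302/miR-367 members lie between 2.23 and 3.30, the 18 Sfmbt2-type repeats all lie below 0, and the 62 Dlk1-Dio3 miRNAs all lie within the limit.

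The miR-302/miR-367 cluster, the characteristic cluster of primed cells, was higher in ELA serum throughout. It is encoded at chr3:127248146-127248725 (mm9, plus strand, GENCODE vM1) within Larp7, antisense to one of its introns. All 8 expressed members passed the limit, beside 8.33% of the 288. Their differences ran from 2.23 to 3.30 with a median of 2.54, beside 0.08 over the 288. The other 2 members, miR-302b-5p and miR-367-5p, were too low to be called expressed and were also higher, which gave a median of 2.48 over the 10. The cluster took 0.595% of the reads of ES serum (Wilson 95% interval 0.590 to 0.601) and 3.73% in ELA serum (3.71 to 3.75), 6.27-fold more. In a bulk sample, more cells that express a miRNA and more of it per cell cannot be told apart.

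The main product was mmu-miR-302d-3p, at 2451 RPM in ES serum and 16726 RPM in ELA serum, a log2 difference of 2.77 (counting interval of the log2 ratio 2.75 to 2.79). mmu-miR-302a-3p was at 1343 and 8176 RPM (2.61). mmu-miR-302b-3p was at 1384 and 7744 RPM (2.48). All 3 of these 3p members were readily counted in ES serum already. mmu-miR-302c-5p had the largest rise of all expressed miRNAs, with 60.6 and 607 RPM (3.30, counting interval 3.18 to 3.47). mmu-miR-302c-3p went from 162 to 1171 RPM (2.84). mmu-miR-367-3p, which has the seed of miR-92a and miR-25 and not that of miR-302, went from 43.8 to 249 RPM (2.48). The levels of the expressed members in ELA serum spanned 249 to 16726 RPM. mmu-miR-302a-5p (334.7 and 1845 RPM, 2.46) and mmu-miR-302d-5p (157 and 739 RPM, 2.23) completed the expressed members.

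The miR-106a/miR-363 cluster on the X chromosome (chrX:50094870-50095744, minus strand, mm9) was also higher. It is a copy of the miR-17/miR-92 cluster, whose members promote cell proliferation. Its 8 listed miRNAs went from 0.658% to 1.35% of the reads together, 2.05-fold more, and 4 of 7 expressed members passed the limit, beside 8.33% of the 288. The median of the 7 was 1.04. mmu-miR-106a-5p was at 540 RPM in ES serum and 1522 RPM in ELA serum (1.49), and mmu-miR-20b-5p at 659 and 1824 RPM (1.47). The most abundant member, mmu-miR-363-3p, went from 4160 to 8137 RPM, just short of the limit at 0.97. mmu-miR-18b-3p went the other way, from 423 to 323 RPM (−0.39).

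The 2 related clusters differed less between the libraries. In the miR-17/miR-92 cluster (chr14:115442893-115443728, plus strand, within Mir17hg), the median of 10 expressed miRNAs was 0.44. Its arms that are not shared with the X chromosome cluster summed to 0.558% and 0.630% of the reads, 1.13-fold more. mmu-miR-17-5p, which differs from mmu-miR-106a-5p by 1 base, was at 838 and 1227 RPM (0.55), and mmu-miR-20a-5p was at 838 and 1179 RPM (0.49). mmu-miR-19b-3p (1965 and 4010 RPM, 1.03) and mmu-miR-92a-3p (84294 and 71866 RPM, −0.23) have a hairpin in both clusters, so their reads cannot be assigned to either. The miR-106b/miR-25 cluster within Mcm7 (Mir106b in an intron, Mir25 and Mir93 in annotated exons) had a median of 0.08 over 5 miRNAs and 1.01-fold the reads. All members of the seed shared by miR-17, miR-20, miR-93 and miR-106 summed to 6065 RPM in ES serum and 8544 RPM in ELA serum, a log2 difference of 0.49.

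Of the 24 miRNAs past the limit upwards, 8 were from miR-302/miR-367 and 4 from miR-106a/miR-363. mmu-miR-5121 went from 60.9 to 478 RPM (2.95). mmu-miR-488-3p, from an intron of Astn1 (chr1:160435756-160435864), went from 15.9 to 128.3 RPM (2.94, counting interval of the log2 ratio 2.73 to 3.30). mmu-miR-375-3p, known from pancreatic islet cells, went from 102 to 416 RPM (2.02). mmu-miR-653-5p, in an intron of Calcr, went from 476 to 1774 RPM (1.90). None of these lies in the clusters above, and at 1774 RPM mmu-miR-653-5p was the most abundant of them in ELA serum. The other 8, named after their values were seen and with mmu-miR-19b-3p the one that shares the loci described above, were mmu-miR-218-5p (1.90), mmu-miR-677-5p (1.75), mmu-miR-670-3p (1.71), mmu-miR-3535 (1.67), mmu-miR-344-3p (1.60), mmu-miR-152-3p (1.31), mmu-miR-296-5p (1.06) and mmu-miR-19b-3p (1.03).

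The lowest difference of all was found on chromosome 8, among neighbours that were all lower. Mir181d (chr8:86702615-86702686) and Mir181c (chr8:86702762-86702867) lie side by side on the minus strand, and Mir23a (chr8:86732417-86732491) and Mir27a (chr8:86732571-86732657) lie 29549 bp away on the plus strand, all between annotated genes. mmu-miR-181d-5p went from 1032 RPM in ES serum to 95.6 RPM in ELA serum, the lowest difference of all expressed miRNAs at −3.42 (counting interval −3.58 to −3.29). mmu-miR-181c-5p was the most abundant of the group, with 3162 and 603 RPM (−2.39), and mmu-miR-181c-3p from the other arm of its hairpin went from 272 to 52.4 RPM (−2.35). mmu-miR-23a-3p was at 250 and 40.6 RPM (−2.60), and mmu-miR-27a-3p at 1091 and 299 RPM (−1.87). All 5 expressed mature miRNAs of this stretch were lower past the limit, beside 14.6% of the 288.

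The expressed relatives encoded elsewhere were not past the limit. mmu-miR-181a-1-3p, too low to be called expressed (5.46 and 12.3 RPM), differed by 1.04, and mmu-miR-181a-2-3p, also too low, by −1.43. miR-181a and miR-181b summed to 0.0123% of the reads of ES serum and 0.0152% in ELA serum, 1.23-fold more, while miR-181c and miR-181d went from 0.447% to 0.0752%, 5.95-fold less. mmu-miR-181a-5p itself was at 98.8 and 117 RPM (0.24) and mmu-miR-181b-5p at 14.1 and 20.7 RPM, below the limit for expressed miRNAs. In ES serum the miR-181 seed was thus carried mainly by mmu-miR-181c-5p and mmu-miR-181d-5p, and the whole seed went from 4307 to 836 RPM (−2.36). The miR-27 seed differed less, because mmu-miR-27b-3p carried most of it: that miRNA was at 20576 and 17171 RPM (−0.26), and the seed at 21667 and 17470 RPM (−0.31). mmu-miR-23b-3p went from 295.9 to 221.8 RPM (−0.41). mmu-miR-24-3p, which both the miR-23a and the miR-23b clusters can make, had only 4 reads in ES serum and was listed at 0 in ELA serum. How reads that map to several places were counted is not given, so whether these cells lack it was not tested.

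**Figure D2:**
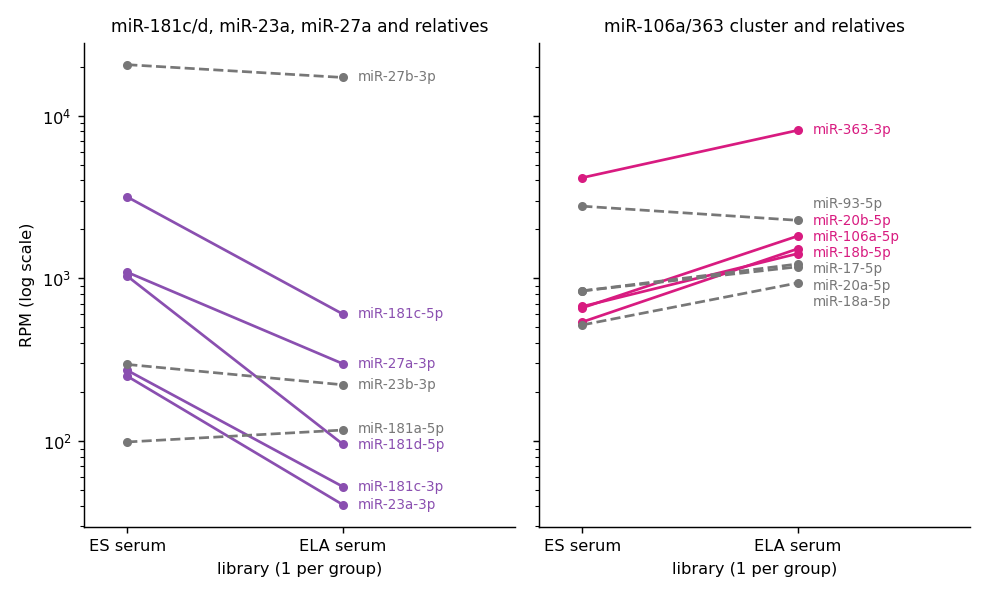
RPM on a log scale in ES serum and ELA serum, 1 library each, for miRNAs of chromosome 8 (left, solid) and of the X chromosome cluster (right, solid) and for relatives encoded elsewhere (dashed). The 5 solid lines on the left run from −1.87 down to −3.42 on the log2 scale while the dashed lines beside them stay within −0.41 to 0.24, and on the right, where names follow the order of the ELA serum points, the solid lines run from 0.97 to 1.49 and the dashed ones from −0.29 to 0.86.

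The Sfmbt2-type repeats form the most numerous group of lower miRNAs. Many members of the miR-297, miR-466, miR-467 and miR-669 families are tandem copies in an intron of Sfmbt2, a gene imprinted in the placenta. The families were listed by name, so members encoded elsewhere may be included. The expressed ones with a position span chr2:10389417-10436598 (plus strand). Of 80 listed, 10 had no read in either library, 65 had at least 3 reads in one of them, and 63 of these 65 were lower, beside 57.8% of the 873 listed miRNAs with that many reads. All 18 expressed members were lower, beside 47.6% of the 288 expressed miRNAs. Of these members 15 passed the limit (12 with DESeq2 size factors), beside 14.6%, and their median was −1.28. Together the 80 took 0.357% of the reads of ES serum and 0.134% in ELA serum, 2.66-fold less. mmu-miR-669a-3p went from 267 to 35.04 RPM (−2.89), mmu-miR-467a-3p from 156 to 32.5 RPM (−2.23), and mmu-miR-466b-3p from 166 to 38.3 RPM (−2.08). mmu-miR-669c-5p (164 and 40.4 RPM, −1.99) and mmu-miR-467c-5p (368 and 115 RPM, −1.67) were the 5p arms with the lowest differences. The copies are near-identical and several mature miRNAs have more than 1 annotated hairpin, so the members are not independent and the reads of any single one are uncertain.

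Without these repeats, 27 miRNAs were lower and 24 higher past the limit. mmu-miR-150-5p, known from lymphocytes, went from 363.3 to 65.2 RPM (−2.46). mmu-miR-2137 went from 211 to 45.0 RPM (−2.20). mmu-miR-22-3p, named after its value was seen as one of the most abundant lower miRNAs, went from 6896 to 2369 RPM (−1.54). mmu-miR-21a-5p, a widely expressed miRNA often raised in tumours, was the most abundant of all 42, with 10972 and 4648 RPM (−1.24), and its other arm mmu-miR-21a-3p was at 489 and 199.3 RPM (−1.29). mmu-miR-125a-5p, a relative of the developmental timing miRNA lin-4, was at 900 and 328 RPM (−1.45).

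**Figure D3:**
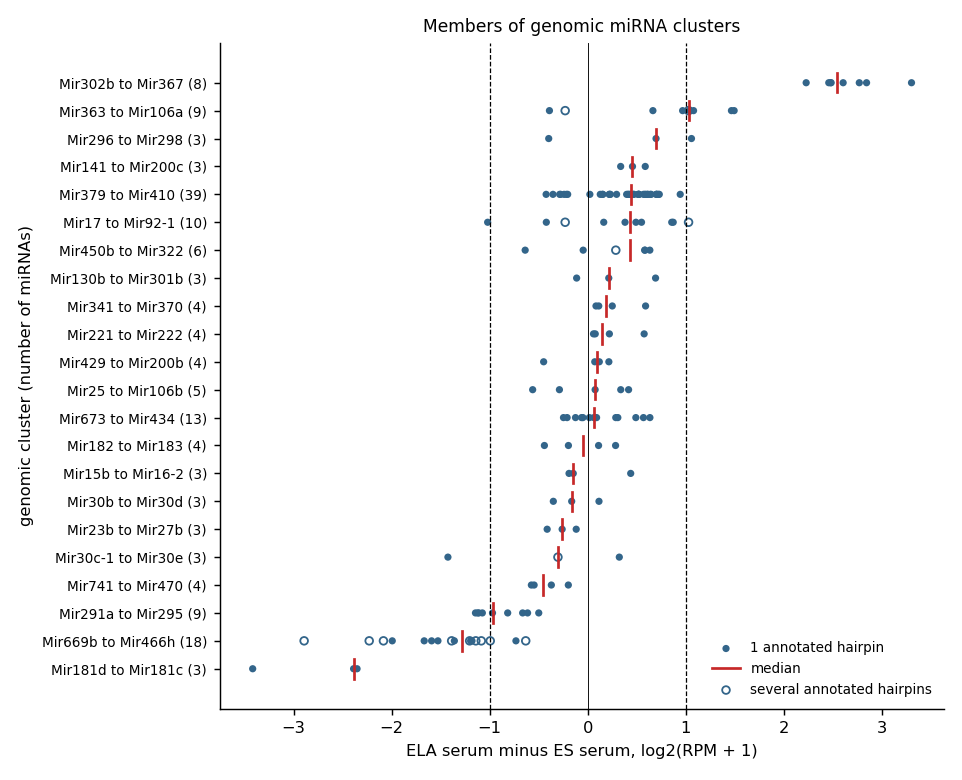
Differences of the expressed miRNAs in each of the 22 groups of hairpins within 10000 bp of each other on 1 strand that held at least 3 of them, ordered by their median (red bar). Open points are miRNAs with several annotated hairpins, which appear in each group that holds one. In 4 groups the median lies beyond the limit: miR-181c/d, the Sfmbt2 repeats, miR-106a/miR-363 and miR-302/miR-367.

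The plot of genomic clusters shows how far neighbours moved together. Positions in mm9 were found for 264 of the 288 expressed miRNAs. In 2 of the 22 groups, miR-302/miR-367 and miR-181c/d, every expressed member passed the limit, and 18 groups had medians within it. Where both arms of a hairpin were expressed (63 hairpins), the arms had differences of the same sign in 47, both arms were higher past the limit in 4 and both lower in 4. In no hairpin did the arms pass the limit in opposite directions.

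The miR-290/miR-295 cluster, the characteristic cluster of ES cells, made up 8.61% of the reads of ES serum (8.59 to 8.63) and 5.55% of ELA serum (5.53 to 5.58), 1.55-fold less. It lies on chromosome 7, its expressed hairpins spanning chr7:3218920-3220842. All 9 expressed members were lower, beside 47.6% of all expressed miRNAs, with a median of −0.97, and 4 of them passed the limit, beside 14.6%. With DESeq2 size factors all 9 were still lower but none passed it. mmu-miR-295-3p, which took most of these reads, was at 49948 RPM in ES serum and 35327 RPM in ELA serum (−0.50). mmu-miR-294-3p was at 8682 and 3988 RPM (−1.12), mmu-miR-291a-5p at 8045 and 4103 RPM (−0.97), and mmu-miR-293-5p at 8334 and 5260 RPM (−0.66). The members thus differed in how far they were lower, and among the 9 the most abundant one differed least. Of the 18 listed, 6 (the arms of miR-290a and miR-292a and the 5p arms of miR-290b and miR-292b) were listed at 0 in both libraries, so the sums cover the other 12.

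The seed shared by miR-294-3p, printed above, was followed as a sum because its 5 members with a sequence come from both clusters and would have largely shared targets. The sum was 65483 RPM in ES serum and 65498 RPM in ELA serum, a ratio of 1.00 with a counting interval from 0.996 to 1.005. Within that sum the 3 miR-290/miR-295 members went from 6.16% to 4.10% of all reads, 1.503-fold less, and the 2 miR-302 members from 0.384% to 2.45%, 6.38-fold more. miR-302 thus carried 5.86% of the reads of this seed in ES serum and 37.4% in ELA serum. The sum in the 2iL libraries was 14.2% of the reads in ES 2iL and 11.4% in ELA 2iL, and miR-302 carried 0.0363% and 3.91% of it. The equality of the sums in serum depends on the scaling and on which miR-302 members are counted. With TMM factors the log2 difference was 0.03 and with DESeq2 size factors 0.20. mmu-miR-302a-3p is not among the sequences used here and is not in the sum. With it added, an alternative chosen after the data were seen, the sum was 66826 RPM in ES serum and 73674 RPM in ELA serum, 1.10-fold more (counting interval 1.098 to 1.107), and miR-302 made up 7.75% and 44.3% of it.

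**Figure D4:**
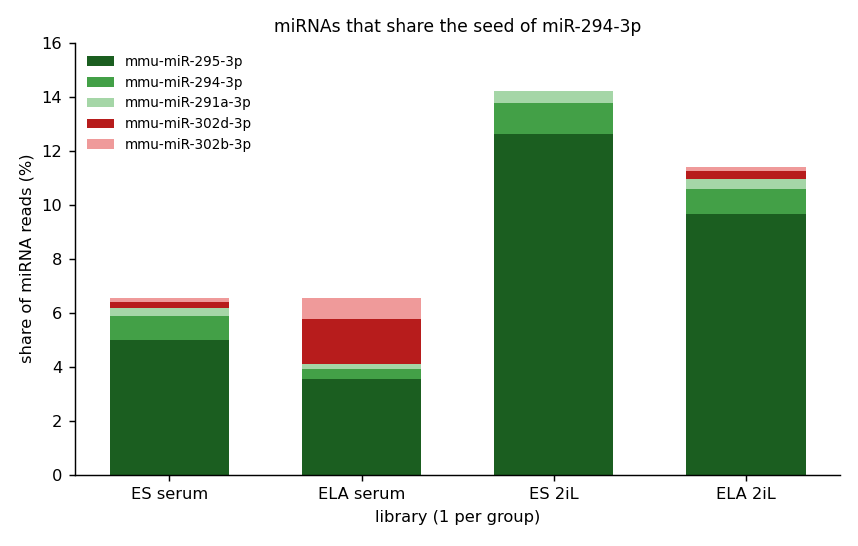
Stacked bars give the share of miRNA reads (%) of the 5 miRNAs with the seed of miR-294-3p in each of the 4 libraries. The serum bars have the same height, 6.55%, without mmu-miR-302a-3p, and with 5.86% of the bar from miR-302 (red) in ES serum and 37.4% in ELA serum.

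Seeds were also summed over the miRNAs with a sequence, members below the limit for expressed miRNAs included. Of 30 seeds carried by at least 2 expressed miRNAs, 2 were higher and 3 lower past the limit. The higher ones were the seed of mmu-miR-302c-5p (229 and 1394 RPM, 2.60) and that of mmu-miR-19b-3p (2368 and 4747 RPM, 1.00). The lower ones were the seeds of miR-181 (−2.36), of mmu-miR-28a-5p (520 and 253 RPM, −1.04) and of mmu-miR-125a-5p (1928 and 959 RPM, −1.01). The last pair and the seed of mmu-miR-19b-3p lay close to the limit. Under the other scalings, added after the data were seen, 1 to 3 seeds were higher and 1 to 3 lower. With DESeq2 size factors the seed of miR-181 alone was lower past the limit, and without the 5 most abundant miRNAs in the totals the seed of mmu-miR-302c-5p alone was higher.

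The 10 most abundant miRNAs of each library differed by at most 0.67 in size. mmu-miR-127-3p led both, with 174652 RPM in ES serum and 185924 RPM in ELA serum (0.09), followed by mmu-miR-182-5p (168075 and 146615 RPM, −0.20). mmu-miR-92a-3p and mmu-miR-183-5p (62488 and 76088 RPM, 0.28) were next, the former above the latter in ES serum and below it in ELA serum. The others among the 10 most abundant of either library were mmu-miR-295-3p, mmu-miR-541-5p (41627 and 57451 RPM, 0.46), mmu-miR-191-5p (40917 and 33374 RPM, −0.29), mmu-miR-99b-5p (34737 and 21828 RPM, −0.67), mmu-miR-27b-3p, mmu-miR-5099 (16051 and 10822 RPM, −0.57), mmu-miR-148a-3p (14843 and 22199 RPM, 0.58) and mmu-miR-410-3p (12125 and 17364 RPM, 0.52). None of them passed the limit. Summed over all miRNAs, 13.4% of the reads would have to move from one miRNA to another to turn the profile of ES serum into that of ELA serum.

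The imprinted Dlk1-Dio3 locus on chromosome 12, which holds one of the largest miRNA clusters of the mouse genome and is expressed from the maternal chromosome, had the largest shift in share of any list. Its 107 listed miRNAs took 29.7% of the reads of ES serum and 35.02% in ELA serum, 1.18-fold more. Of 62 expressed members 50 were higher, beside 52.4% of all expressed miRNAs, and 12 lower, and none passed the limit. The median was 0.40 and the range −0.42 to 0.94. With DESeq2 size factors 3 of the 62 passed the limit upwards, beside 36 of the 308 miRNAs expressed under that scaling.

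The share of reads on each arm was compared in 248 hairpins with at least 50 reads in both libraries. The median shift was 1.28 percentage points in size, 54 hairpins shifted by more than 5 points and 28 by more than 10, and the major arm changed in 7. miR-503 had the largest shift, from 40.0% of reads on the 5p arm (Wilson interval 28.1 to 53.2) to 73.8% (62.05 to 82.98), on few reads. The paralogous hairpins miR-18a and miR-18b shifted alike and with narrow intervals. miR-18a went from 54.4% (53.3 to 55.5) to 81.5% (80.4 to 82.5) on the 5p arm, and miR-18b from 61.4% (60.3 to 62.4) to 81.5% (80.6 to 82.4). Behind this, mmu-miR-18a-5p was at 518 and 938 RPM (0.86) while mmu-miR-18a-3p was at 434 and 213 RPM (−1.02). In the 2iL libraries the 5p share of miR-18a was 79.2% in ES 2iL and 89.3% in ELA 2iL, and that of miR-18b was 69.7% and 80.2%.

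In several hairpins of the Sfmbt2 repeats the 3p reads were lower by more than the 5p reads. The 5p share of miR-669a went from 61.0% to 85.6%, of miR-466c from 40.2% to 68.3% and of miR-467a from 77.6% to 91.5%. mmu-miR-467a-5p was at 541 and 349 RPM (−0.63) beside the −2.23 of its 3p arm, and mmu-miR-669a-5p at 417 and 209 RPM (−0.99) beside −2.89. In the 2iL libraries the 5p share also rose in value, from 42.3% to 70.8% for miR-669a and from 64.2% to 81.02% for miR-467a. The 5p share of the repeat hairpin miR-466n differed the other way, with 41.0% in ES serum and 26.5% in ELA serum. The remaining hairpin of the 6 with the largest shifts was miR-493 (33.1% to 52.2%).

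Other families stayed mostly within the limit. The epithelial miR-200/miR-141 family had 7 expressed members between −0.45 and 0.59, and the miR-183/miR-96/miR-182 cluster took 23.2% of the reads of ES serum and 22.4% in ELA serum. let-7 miRNAs, which accumulate as pluripotent cells differentiate, were low in both libraries, with 0.0375% and 0.0278% of the reads and a median of −0.61 over 4 expressed members, none past the limit. The miR-15/miR-16 family (median 0.09 of 8), the miR-130/miR-301 family (0.29 of 5), the miR-34/miR-449 family (0.47 of 4), miR-221/miR-222 (0.15 of 4) and the miR-26 family (0.22 of 2) had no member past the limit, nor did mmu-miR-29a-3p (0.85, but 1.04 with DESeq2 size factors), the expressed member of the miR-29 family. In the miR-30 family mmu-miR-30c-1-3p (88.4 and 32.3 RPM, −1.43) was the single one of 8 past the limit, beside 14.6% of the 288 lower past it. mmu-miR-10a-5p, from a Hox locus, was at 122 and 58.5 RPM (−1.05), and mmu-miR-148a-3p and mmu-miR-152-3p had 1 seed in common and were at 0.58 and 1.31. Of 5 expressed miRNAs listed from imprinted loci other than Dlk1-Dio3 and Sfmbt2, mmu-miR-296-5p (76.7 and 161 RPM) passed the limit upwards, beside 8.33% of the 288.

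Markers of other cell types were summed by list in each library. The 15 listed muscle miRNAs included no expressed one and summed to 0.00243% and 0.00615% of the reads, with mmu-miR-133a-3p at 10.4 and 46.6 RPM. The 20 neural miRNAs summed to 0.0921% and 0.0802%, with 5 expressed: mmu-miR-218-5p, known from motor neurons, was higher (49.6 and 188 RPM, 1.90), mmu-miR-128-1-5p was lower (164 and 65.2 RPM, −1.32), and mmu-miR-9-5p was at 356 and 246 RPM (−0.53). Blood miRNAs summed to 0.101% and 0.0632%, with mmu-miR-150-5p lower, and those of mesenchyme to 0.322% and 0.1498%, nearly all from mmu-miR-143-3p (3102 and 1451 RPM, −1.10). Endoderm and liver miRNAs summed to 0.185% and 0.122%, where mmu-miR-375-3p was higher and mmu-miR-192-5p (1700 and 773 RPM, −1.14) lower. The part of any other cell type in the differences was not tested. Of the 5 miRNAs that the study chose from these samples for transfection, 3 were lower past the limit (mmu-miR-150-5p, mmu-miR-181c-5p and mmu-miR-295-5p), beside 14.6% of the 288, while mmu-miR-425-5p was at 297.9 and 245 RPM and mmu-miR-27b-5p at 91.5 and 84.2 RPM. The study's choice makes their direction no independent evidence, and with DESeq2 size factors mmu-miR-27b-5p was higher by 0.08 and mmu-miR-295-5p (−0.88) was not past the limit. The same scaling left mmu-miR-143-3p, mmu-miR-192-5p and mmu-miR-10a-5p short of it.

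The 2iL libraries are a separate measure of the same transition that did not enter the choice of the 66 miRNAs. Of the 24 higher in ELA serum, 21 (87.5%) were also higher past the limit in ELA 2iL, beside 21.5% of all 288. The 24 are not independent, since 8 come from miR-302/miR-367 and 4 from miR-106a/miR-363. Of the 42 lower ones, 39 were lower at all in ELA 2iL, beside 52.4% of the 288, and 24 (57.1%) past the limit, beside 20.1%, and none was higher past it. With totals that leave out the 5 most abundant miRNAs, 16 were lower past the limit in both media, and without the Sfmbt2-type repeats 14 were. The median of the 24 was 1.90 in serum and 2.95 in 2iL, and that of the 42 was −1.34 and −1.23. In 2iL the difference was larger for 19 of the 24 higher miRNAs and for 13 of the 42 lower ones. Over all 288, 21.5% were higher and 20.1% lower past the limit in 2iL, beside 8.33% and 14.6% in serum.

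Levels at the start differed between the media. mmu-miR-302d-3p was at 27.5 RPM in ES 2iL and 2930 RPM in ELA 2iL, so its level in ES serum (2451 RPM) was close to that reached by ELA 2iL. mmu-miR-375-3p was at 11.9 RPM in ES 2iL and 550 RPM in ELA 2iL (5.41), and mmu-miR-670-3p, at 46.4 and 154 RPM in serum, was listed at 0 in ES 2iL and at 150 RPM in ELA 2iL. mmu-miR-181c-5p had 11821 RPM in ES 2iL and 1983 RPM in ELA 2iL, and its difference there (−2.57) was near that in serum. mmu-miR-21a-5p was lower by 1.24 in serum, whereas in 2iL it was at 2742 and 2450 RPM (−0.16). mmu-miR-218-5p went the other way in 2iL, from 250 to 109 RPM (−1.19), as did mmu-miR-152-3p, from 80.95 to 35.8 RPM (−1.16), the latter on 21 reads in ELA 2iL. ELA 2iL was the shallowest library, with 587363 reads.

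**Figure D5:**
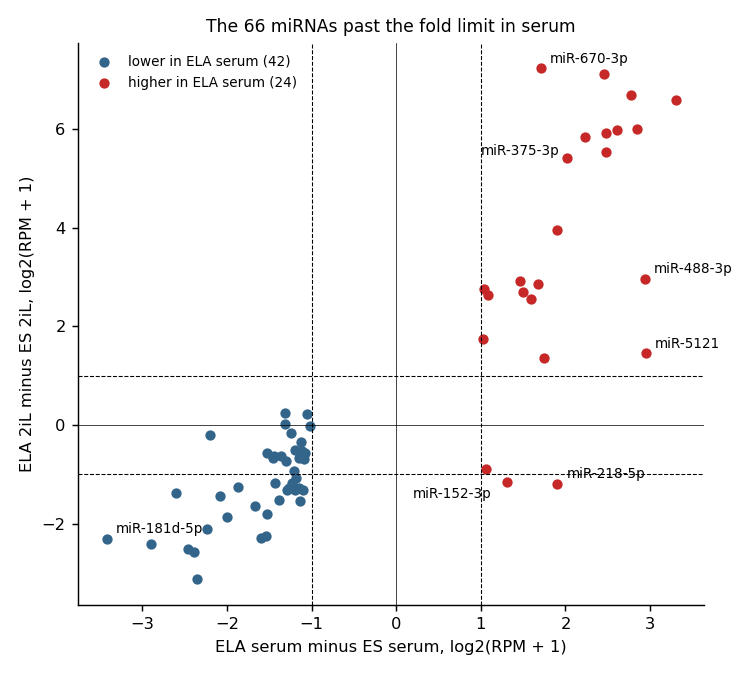
Each point is 1 of the 66 miRNAs past the limit in serum, with the difference in serum on the x axis and that in 2iL on the y axis (log2(RPM + 1), 1 library per group). Dashed lines mark the fold limit. Of the 24 higher miRNAs (red) 21 lie in the upper right, while miR-218-5p and miR-152-3p lie below the lower line, and 39 of the 42 lower miRNAs (blue) lie below 0.

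A test was possible only for a stage effect shared by both media, which leaves 1 residual degree of freedom among the 4 libraries. limma on log2(RPM + 1) called 0 of 599 tested miRNAs at an adjusted p under 0.05 (background 0%), with a smallest adjusted p of 0.133 and 20.9% of the 599 at an unadjusted p under 0.05. With recovered reads, the quasi-likelihood test of edgeR called 39 of 599 (background 6.51%), 26 higher and 13 lower in ELA. Among the 66 miRNAs past the limit in serum, edgeR called 24, of which 18 were higher and 6 lower. These included all 8 expressed miR-302/miR-367 members (adjusted p from 0.00547 to 0.00651), mmu-miR-488-3p (0.00593), mmu-miR-653-5p (0.00651) and mmu-miR-375-3p (0.00674). The lower ones were mmu-miR-181d-5p and mmu-miR-181c-3p (both 0.00651), mmu-miR-669a-3p (0.00684), mmu-miR-181c-5p (0.00893), mmu-miR-150-5p (0.00897) and mmu-miR-467a-3p (0.0295). edgeR did not call mmu-miR-23a-3p (0.0567), mmu-miR-27a-3p (0.101) or any miR-290/miR-295 member among the 66. DESeq2 called mmu-miR-23a-3p (adjusted p 0.0244) but not mmu-miR-27a-3p (0.0922). Since the serum libraries entered both the choice of the 66 and this test, the calls are not independent of it.

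Part of the low miRNAs were counted in 1 of the 2 libraries only. Of the 1907 listed, 853 had reads in both, 796 in neither, 77 in ELA serum alone and the rest in ES serum alone. The deeper library was ES serum. mmu-miR-1298-3p had 0 reads in ES serum and 19 in ELA serum (4.41 RPM, 11.8-fold the RPM of 3 reads in ES serum). mmu-miR-325-5p had 8 reads and mmu-miR-3081-3p 5 reads in ELA serum alone. mmu-miR-1954 had 15 reads in ES serum (2.67-fold the RPM of 3 reads in ELA serum) and 0 in ELA serum. mmu-miR-143-5p had 12 and 0, and mmu-miR-7220-5p 11 and 0. The ratios to 3 reads leave out counting error and are not lower bounds.

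The mature sequences of the miRNAs past the limit were described where the table held them. Of the 24 higher miRNAs 22 had a sequence and 11 of these began with U, beside 7 of 24 (29.2%) of the lower ones and 48.2% of the expressed miRNAs within the limit. The median GC content was 43.2% for the higher, 50% for the lower and 47.4% for the others. The lower group is described without the Sfmbt2 repeats, whose members past the limit had no sequence in the table. The median length was 22 bases in all groups.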

How the data were processed

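The authors made small RNA libraries from 1 µg of RNA pooled from 3 sets of experiments, with the TruSeq Small RNA kit, and sequenced them on a MiSeq. Per the submitters' processing notes and methods, reads passed through CASAVA 1.8 and Trimmomatic, were mapped to mm9 with Bowtie, and were assigned to miRBase 20 miRNAs with featureCounts. Other versions are not given in the sources used here. The authors deposited RPM values, which sum to 1000000 per library. All values were whole multiples of 1 read (100% within 0.02 reads), so reads were recovered: 8056984 in ES serum, 4309257 in ELA serum, 2767016 in ES 2iL and 587363 in ELA 2iL. A count of 3 reads equals 0.372 RPM in ES serum and 0.696 RPM in ELA serum.

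Differences used log2(RPM + 1), a pseudocount of 1, with limits (mean of 5, difference of 1) from the study's methods. Intervals of read ratios are exact (Clopper-Pearson, 95%), and those of shares are Wilson intervals. All cover counting error only, as the reads carry no molecular identifiers. The stage test was written for counts. Since RPM were deposited, limma 3.58.1 was used (stage and medium, two-sided, for miRNAs reaching 10 reads in 2 or more libraries, Benjamini-Hochberg). edgeR 4.0.16 on recovered reads was added after the data were examined, and DESeq2 1.42.0 was another alternative. Scripts were tested on simulated data. Hairpins are placed by name in GENCODE vM1 (830 of 1907 miRNAs).

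Members and lists were chosen with earlier results of these data known. Named miRNAs are the 12 largest rises and 12 largest falls, the 10 most abundant of each library, 5 transfected by the study, up to 4 examples of each list (highest mean), up to 3 each way with 0 reads in 1 library, and the 6 hairpins with the largest arm shifts. Others are named as members of a cluster, a sequence relative or the rest of a count. Alternatives changed the pseudocount, scaling, filter, fold limit and members.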

Additional observations from a re-analysis of the deposited data

Results flagged for a closer look

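For 2 of the miRNAs higher in ELA serum, the difference in the 2iL libraries was past the limit in the opposite direction. The change of mmu-miR-218-5p in 2iL minus that in serum was −3.09 (log2), from 1.90 in serum and −1.19 in 2iL. For mmu-miR-152-3p it was −2.46, from 1.31 in serum and −1.16 in 2iL. With 1 library per group, the difference between the media was not tested.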

How the results depend on the processing

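The filter on low values moved the counts most. With a mean of at least 3, 74 miRNAs were lower and 47 higher in ELA serum, and 42 and 37 were past the limit the same way in 2iL. With a mean of at least 7, 19 were lower (11 also in 2iL) and 15 higher. With no filter, 117 were lower and 68 higher, and 69 and 47 were so in both media. Without the 5 most abundant miRNAs in the totals, 16 were lower in both media. A difference of at least 1.5 left 16 lower, 11 of them in both media, and leaving out the Sfmbt2-type repeats left 27 and 14. The median of the miR-302/miR-367 cluster was 2.68 with DESeq2 size factors, and that of miR-290/miR-295 was −0.60 with them and −0.97 over expressed members only. The log2 difference of the miR-294-3p seed sum was 0.029 with TMM, 0.20 with DESeq2 size factors and −0.026 without the 5 most abundant miRNAs, and the median of its members was −0.50. With miR-302a-3p added, a setting chosen after the data were seen, it was 0.14. The stage test called 9 miRNAs with a pseudocount of 5, 99 of 1202 with no filter, 28 with TMM factors, 39 with edgeR and 50 with DESeq2 (47 adjusted p were NA). The cause of these moves was not tested beyond the number of miRNAs each setting admits. No paired analysis was possible because the groups share fewer than 2 replicate numbers, apart from the stage test itself, which compares the stages within each medium. With 1 library per group, no replicate could be left out. Depth limits ELA 2iL most, where 3 reads equal 5.11 RPM.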
